A study of Mus musculus with 4 samples.

Results

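The 2 arrays of untreated B16F10 cells, out of 4 arrays in the series, were described on their own. B16F10 is a pigmented mouse melanoma line derived from a C57BL/6 mouse. Both samples (control 1 and control 2) were given MilliQ water, that is 0 µM plumbagin, and the exposure of the experiment lasted 24 h; the other 2 arrays carried RNA of cells given plumbagin and are not used here. The labels name no transgene or other agent, and do not say whether the controls came from separate cultures, so the spread between them could be technical. Members were chosen by sample title, and for each of 17097 named genes the probe set that was brightest on average over both controls was used. All values below are log2 expression values, given for control 1 and then control 2, and no groups were compared, so no test was run.

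Melanocytes arise from the neural crest, a migratory embryonic cell population that also gives rise to Schwann cells, peripheral neurons and part of the facial skeleton. The transcription factors Sox10, Pax3 and Mitf set up the lineage. Mitf then drives the genes for melanin synthesis, which takes place in melanosomes, organelles related to lysosomes. Tyrosinase (Tyr) carries out the rate-limiting oxidation of tyrosine, Dct and Tyrp1 act on later intermediates of the black-brown pigment, and Pmel forms the fibrils on which the pigment is laid down.

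All 6 genes that mark the line lay far up the scale. Tyrp1 read 12.30 and 12.34 (SD 0.031, n = 2), Pmel 12.11 and 12.17 (SD 0.047), and Dct 12.09 and 12.16 (SD 0.049). Tyr read 10.85 and 10.97 (SD 0.081), Mitf 10.70 and 11.18 (SD 0.34), and Sox10 10.80 and 10.96 (SD 0.11). Among all genes, Tyrp1 ranked 8, Pmel 17, Dct 20, Mitf 212, Tyr 222 and Sox10 232 from the brightest. The 2 arrays gave nearly the same value for each of the 6 except Mitf, where control 2 was 0.48 higher.

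The sequences just upstream of Tyr, Tyrp1 and Dct are shown because these 3 pigment enzymes, each among the brightest genes, share a run of letters there. Each line gives the 180 bases before the gene's start from RefSeq, build GRCm38.p6, 5′ to 3′ on the gene's own strand, and capitals mark the longest run found in all 3. The regions are chr7:87493513-87493692 on the minus strand for Tyr, chr4:80834033-80834212 on the plus strand for Tyrp1, and chr14:118052247-118052426 on the minus strand for Dct.
Tyr: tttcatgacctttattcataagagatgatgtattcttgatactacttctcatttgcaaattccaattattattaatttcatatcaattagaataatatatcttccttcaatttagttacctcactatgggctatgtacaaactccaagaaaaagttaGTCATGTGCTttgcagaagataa
Tyrp1: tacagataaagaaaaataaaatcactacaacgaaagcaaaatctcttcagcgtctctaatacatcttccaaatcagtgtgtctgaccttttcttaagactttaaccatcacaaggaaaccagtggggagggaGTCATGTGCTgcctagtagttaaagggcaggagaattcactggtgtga
Dct: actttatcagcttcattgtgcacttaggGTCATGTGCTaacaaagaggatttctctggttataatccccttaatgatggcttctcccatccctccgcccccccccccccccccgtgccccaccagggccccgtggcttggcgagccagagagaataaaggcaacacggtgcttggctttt

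The shared run, GTCATGTGCT, was 10 letters long and began 23 bases before the start of Tyr, 48 before Tyrp1 and 152 before Dct. It holds TCATGTG, the core of the M-box, an element known in pigment gene promoters as a place where Mitf binds. The run was searched for after it had been seen in these 3 sequences. On either strand it was present in 61 of 32841 RefSeq windows of 300 bases (0.186%), each reaching from 250 bases before a gene's start to 50 after it. The shorter TCATGTG was present in 1239 windows (3.77%) and CATGTG, which it contains, in 4649 (14.2%). Of the 11 measured genes with the full run, 6 lay above the background level defined below. Among all genes, with or without a window, 53.5% did. These 6 include Tyr, Tyrp1 and Dct, from which the run was taken, so the count says nothing about the run. They ranged from Tyrp1 at the top to Olfr701, at 5.13 and 5.01. Olfr701 is an odorant receptor gene and one of those that set the level. Dclk1, a microtubule-associated kinase, read 8.74 and 8.80, and Bglap, which encodes osteocalcin, 5.97 and 5.82. C1qb, a complement gene, read 3.26 and 3.20, so the letters were found in the windows of dark as well as bright genes. These matches are letters in a window, and binding was not measured.

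Odorant receptor (Olfr) genes, which serve smell in the nasal epithelium and were assumed to be silent in B16F10 cells, gave the background. Of these 39 were measured, with means from 2.66 to 5.07 and a median of 3.80. The 95th percentile of these genes was 4.77 on control 1 and 4.73 on control 2, and a gene was called above the Olfr level where both arrays exceeded their own bound. By that rule 9141 genes (53.5%) were above, 321 were above on 1 array alone and 7635 on neither. The class at or below the level held 7956 genes (46.5%), 4247 (24.8%) lay between it and 7, 3505 (20.5%) between 7 and 9, 1200 (7.02%) between 9 and 11, and 189 (1.11%) over 11. The mean exceeded 9 in 1389 genes (8.12%), and the brightest 5% of the genes, 855 in number, had means of at least 9.54.

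**Figure D1:**
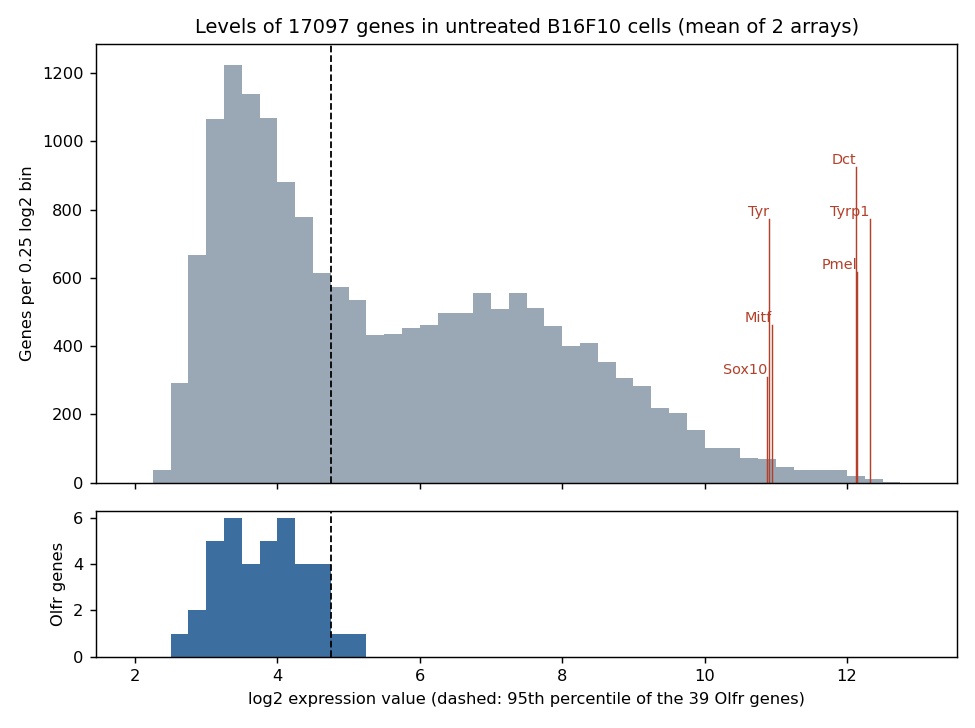
Number of genes per 0.25 log2 bin against the mean log2 expression value of the 2 control arrays, for all 17097 genes (upper panel) and for the 39 Olfr genes (lower panel); the dashed line is the mean of the 2 arrays' Olfr levels, 4.75. Tyr, Sox10 and Mitf lie near 11 and Tyrp1, Pmel and Dct beyond 12, at the far right of a distribution whose highest peak lies among the Olfr genes.

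A bright probe set need not mean a more abundant transcript, since probe sets differ in how well they bind. Where a gene above the level had several probe sets, the brightest exceeded the next by a median of 1.21, an upper quartile of 2.22 and a 90th percentile of 3.43, and this is the error of setting one gene beside another. The controls themselves differed far less, with a median absolute difference of 0.111 across genes and a median SD of 0.12 among the genes above the level. Their Pearson correlation across the 17097 genes was 0.993. A gene at the Olfr level is also not shown to be silent. Rps15a, a ribosomal protein gene that every cell uses, read 3.72 and 3.67, and Eif4e, the cap-binding initiation factor, 3.48 and 3.49, each on a single probe set. Taking the brightest probe set favours genes with many: 40.9% of the 9917 genes with 1 probe set were above, against 64.4% of 4275 with 2 and 80.2% of 2905 with 3 or more.

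The brightest genes were those of protein synthesis, the cytoskeleton, glycolysis and pigment. Of the 30 brightest, 16 encode cytosolic ribosomal proteins, among them Rplp1, Rpl41, Rps29 and Rplp0, and 3 are the pigment genes Tyrp1, Pmel and Dct. Eif3f, a subunit of an initiation factor, came first with 12.51 and 12.49, followed by the elongation factor Eef1a1 (12.50 and 12.49) and the glycolytic enzyme Gapdh (12.51 and 12.45). Tmsb10, an actin-binding thymosin, read 12.54 and 12.38, Tuba1b, an alpha tubulin, 12.42 and 12.28, and Fth1, the ferritin heavy chain, 12.25 and 12.25. The next probe sets of Eif3f and Tmsb10 were dimmer, at 11.3 and 10.4, so the places of these genes rest on 1 probe set each. The other probe set of Tyrp1 was nearly as bright as the first, at 12.22. Plagl1, an imprinted zinc finger gene, ranked 22 at 12.04 and 12.06, but its other probe set read 7.67. Its brighter probe set is of the kind marked as able to bind other transcripts, as were 7 of these 30 against 2.60% of all genes. The mark s, of probes shared among transcripts, was carried by 4 of the 30, against 5.11% of all genes. The suffix a was carried by 13, against 12.8%, and was not read as binding to other genes. No suffix letter was present in 6 of the 30, against 79.5% of all genes. Eif3f, Gapdh and Tmsb10 all carried the mark s, so these ranks can hold signal of related transcripts.

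Melanin enzymes and melanosome proteins were above the Olfr level in 17 of 18 measured genes, beside 53.5% of all genes. Of these 17, 8 were among the brightest 5%, and the median of the list was 9.43 against 5.10 for all genes. Gpnmb, a glycoprotein related to Pmel, read 11.78 and 11.63, and Mlana, a melanosome membrane protein, 11.69 and 11.09. Slc45a2, a transporter needed for pigmentation, read 10.81 and 11.07, with its other probe set at 10.08. The 3 probe sets of Tyr had means of 10.91, 9.89 and 9.24. The lower members were still well clear of the background. Atp7a, the pump that supplies copper to tyrosinase, read 9.14 and 9.53, and Gpr143, a melanosomal receptor, 8.51 and 8.70. Oca2, a melanosomal membrane transporter, read 7.91 and 8.46, and the cystine carrier Slc7a11 6.89 and 6.74. Tpcn2, an ion channel of the melanosome, was the exception at 3.97 and 3.98, on its single probe set.

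Genes that build, sort and carry melanosomes were above the level in 26 of 27, beside 53.5% of all genes, with a median of 7.97. Rab38, a small GTPase that directs pigment enzymes to melanosomes, was brightest at 11.43 and 11.59, whereas its partner Rab32 read 7.69 and 7.45. The 3 members of the complex that tethers melanosomes to actin were Myo5a, the motor, at 9.56 and 10.15, Rab27a at 8.59 and 8.95, and the adaptor Mlph at 7.64 and 7.22. Of the AP-3 adaptor, Ap3d1 read 9.17 and 9.28 and Ap3b1 9.14 and 9.01. All measured subunits of the sorting complex BLOC-1 were above, from Dtnbp1 at 9.11 and 9.12 down to Bloc1s3 at 6.62 and 6.53. The genes of the Hermansky-Pudlak complexes were spread widely, with Hps3 at 8.23 and 8.27, Hps5 at 6.23 and 6.38, and Hps1 at 5.64 and 5.54. Hps6 read 4.14 and 4.14 on 1 probe set and was the 1 gene of the 27 not above.

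Of the transcription factors of the melanocyte lineage, 9 of 12 were above, beside 53.5% of all genes, and 3 were among the brightest 5%. Besides Mitf and Sox10, these included Pax3, at 9.75 and 9.94, with all 3 of its probe sets between 8.41 and 9.84. Mitf's other probe set read 8.68, and those of Sox10 read 7.48 and 6.67. Tfap2a, an AP-2 factor active in the crest and in melanocytes, had a mean of 8.99 (SD 0.016). Zeb2 was 1.01 higher on control 2, at 7.68 and 8.69. Pou3f2, associated with invasive melanoma, read 5.45 and 5.48, and 1 of its 3 probe sets was above. Irf4 (4.25 and 4.15), Tfec (3.51 and 3.55) and Lef1 (2.90 and 2.91) were not above.

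The receptors that steer melanocytes fell at opposite ends of the scale. Met, the receptor for hepatocyte growth factor, read 11.15 and 11.25 and ranked 151, and Mc1r, the receptor for melanocyte-stimulating hormone, read 9.96 and 10.07. Fzd7, a Wnt receptor, read 8.64 and 8.16, and Erbb3 7.58 and 6.73. By contrast Kit, which melanoblasts need for survival, was barely above the level at 4.97 and 4.83, on 1 probe set. Ednrb, the endothelin receptor of migrating melanoblasts, was below it at 3.65 and 3.66, and its other probe set read 3.64. The ligands read low throughout. Pomc, the hormone precursor, gave 5.45 and 5.36 and Kitl 4.81 and 4.93, while Edn1, Edn3 and Hgf were not above. Hgf, the ligand of Met, read 3.69 and 3.77, with no probe set of its 3 above. In all, 7 of 11 measured receptor and ligand genes were above, beside 53.5% of all genes.

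**Figure D2:**
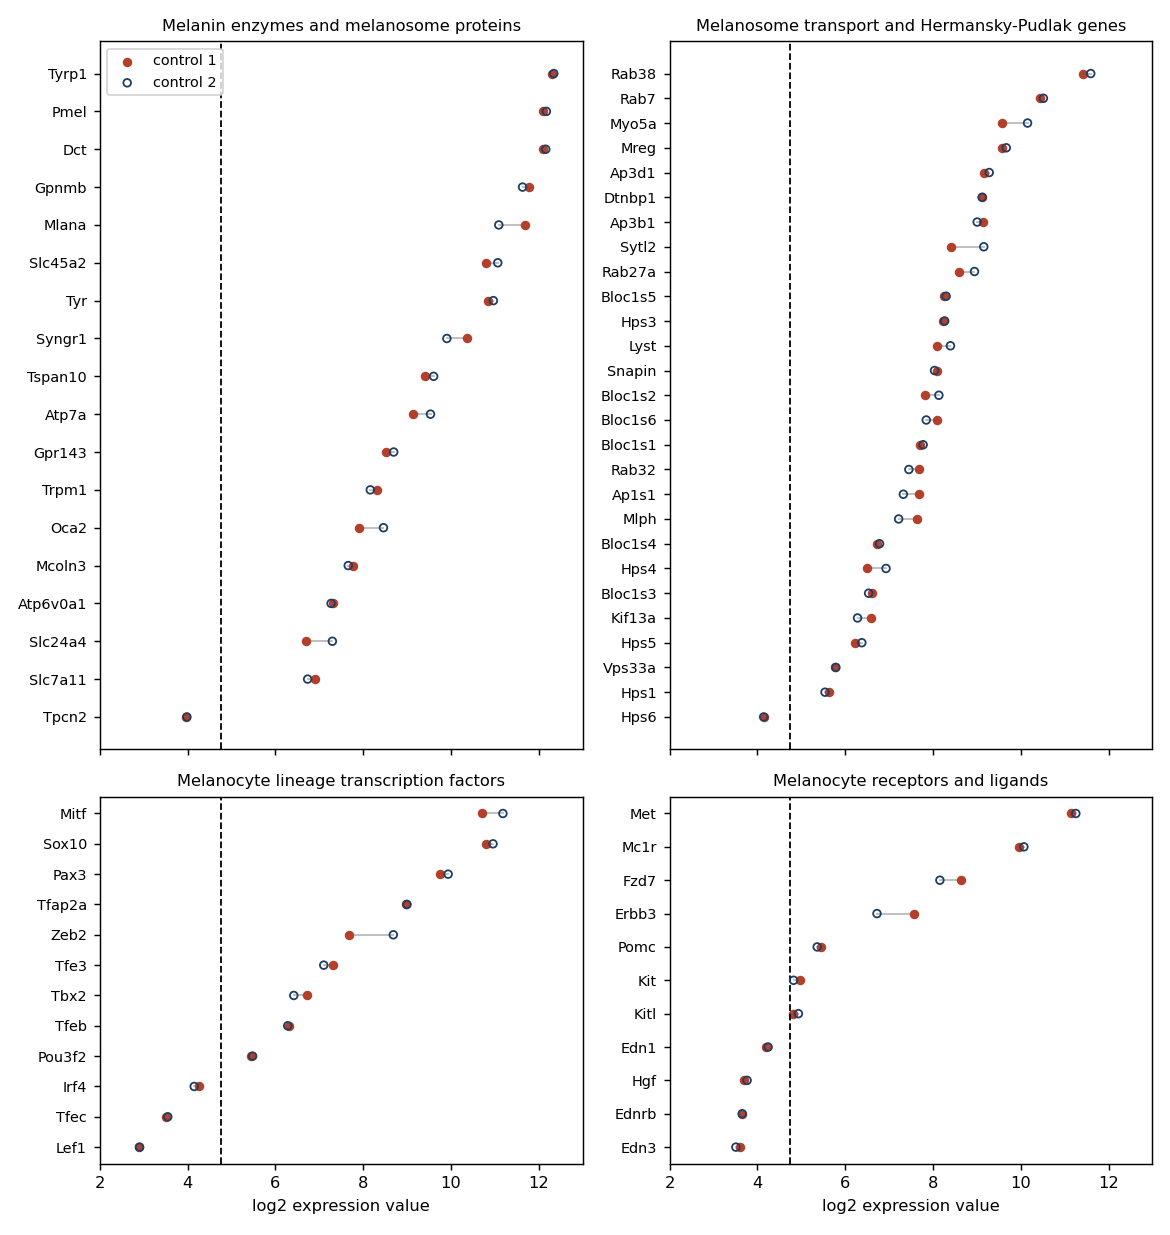
Log2 expression values of the measured genes of 4 melanocyte lists, filled circles for control 1 and open circles for control 2, with the Olfr level dashed at 4.75. Tpcn2 and Hps6 alone lie left of the line in the upper panels, while Irf4, Tfec, Lef1, Edn1, Hgf, Ednrb and Edn3 do so in the lower ones.

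Neural crest specifiers were above in 11 of 26 (42.3%), beside 53.5% of all genes, with a median of 4.15. The members above included Sox10, Pax3 and Tfap2a. They also included Ets1, at 10.59 and 10.64, and Id2, an inhibitor of basic helix-loop-helix factors, at 10.47 and 10.93. Myc read 8.69 and 8.88 and Id3 6.91 and 7.48. The other 15 were at the Olfr level. Of these, Foxd3 read 3.69 and 3.75, Snai2 4.30 and 4.25, Snai1 3.16 and 3.25, Twist1 3.09 and 3.14, Pax7 3.71 and 3.76, and Ngfr, the p75 receptor, 3.78 and 3.70. Sox9 was 0.15 above the mean level at 4.79 and 5.01, and its other probe sets, 3.73 and 3.70, were not above.

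Lists for other crest fates were read beside the 53.5% of all genes. Schwann cell and glia markers were above in 8 of 11, and in 5 with the lowest probe set of each gene, with S100b, a calcium-binding protein used as a melanoma marker too, at 8.22 and 8.69, the myelin protein Pmp22 at 7.98 and 7.47 and Mbp at 7.44 and 7.30. Gfap (5.33 and 5.18) and Cnp (5.33 and 5.08) were above with 1 probe set each, and Egr2, the regulator of myelination, read 3.38 and 3.26. Of the markers of sympathetic and sensory neurons, 3 of 20 were above: Tubb3 (7.80 and 7.27), Ntrk2 (6.23 and 6.05) and Dbh (7.05 and 6.95, on a probe set marked as able to bind other transcripts). Smooth muscle markers were above in 2 of 6 and cartilage markers in 1 of 8, the one being Sox9. Col2a1, the main collagen of cartilage, read 3.75 and 3.81, Th, the enzyme of catecholamine synthesis, 3.55 and 3.51, and Phox2a 3.16 and 3.10.

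Markers of other cells that a culture or a tumour might hold were mostly at the Olfr level, while 53.5% of all genes were above it. Fibroblast markers were above in 2 of 12, and the defining collagens were dark, with Col1a1 at 3.39 and 3.45 and Col3a1 at 2.98 and 2.98. The members above were Fbln1 (9.45 and 8.98) and Fn1 (7.34 and 6.56), both matrix proteins. Of the keratinocyte markers, 1 of 11 was above, Krt5 at 4.92 and 4.81, while Krt14 read 3.19 and 3.36. Macrophage and leukocyte markers were above in 3 of 15, with Ptprc, the common leukocyte antigen, at 3.48 and 3.61, Adgre1 at 3.35 and 3.36 and Cd3e, the brightest, at 6.33 and 6.09. Endothelial markers were above in 2 of 8, both just over the line: Kdr (5.09 and 5.14) and Flt1 (5.05 and 5.08). Erythroid markers were above in 2 of 5, among them the alpha globin gene Hba-a1 at 7.21 and 7.15, whose 3 probe sets had means of 7.18, 5.56 and 3.49. Genes of other organs were above in 2 of 16, the milk protein Csn2 (5.89 and 5.86) and the thyroid hormone carrier Ttr (5.31 and 5.27), and Alb, serum albumin, read 3.47 and 3.65. The pluripotency and germ cell list had 1 of 15 above, Utf1 at 5.64 and 5.67, with Pou5f1, Nanog and Sox2 between 2.58 and 3.35 on both arrays. In bulk RNA, fewer cells of a type and less RNA per cell cannot be told apart.

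**Figure D3:**
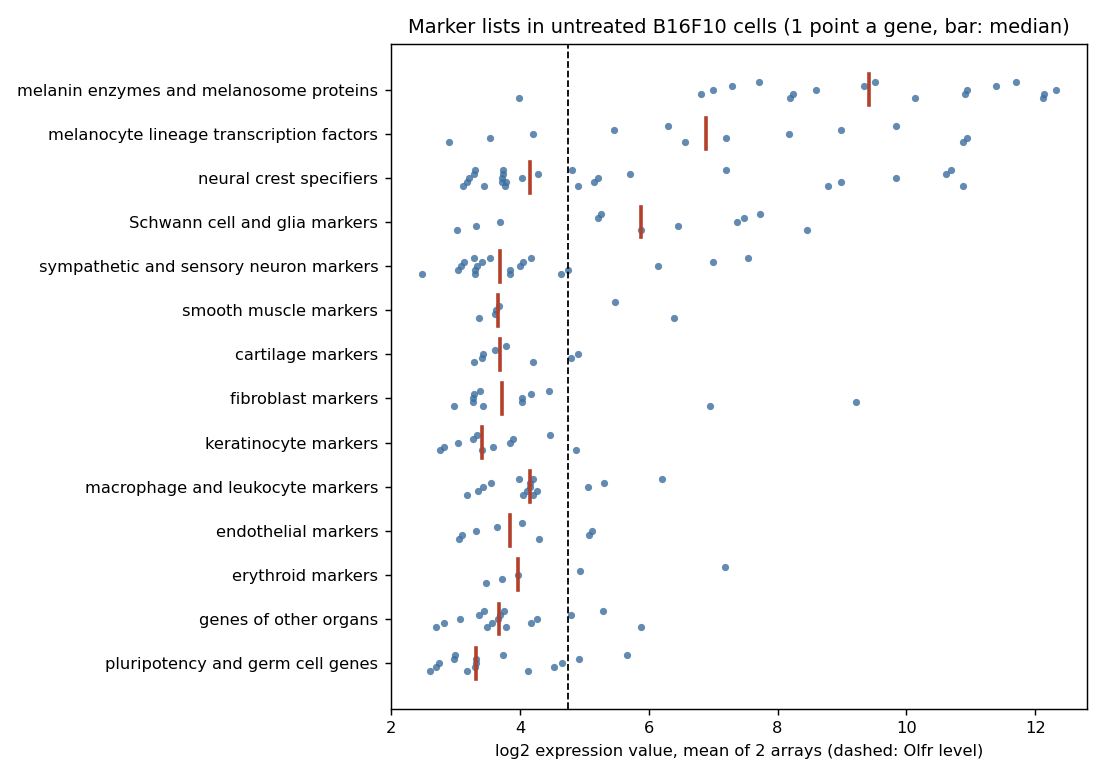
Mean log2 expression value of the 2 controls for each measured gene of 14 marker lists, with the median of a list as a red bar and the Olfr level dashed at 4.75. The bars of the pigment, lineage factor and glia lists, at 9.43, 6.89 and 5.88, lie right of the line and the bars of the other 11 lists lie left of it.

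Genes of the sex chromosomes were also listed. The X-linked genes Ddx3x, an RNA helicase, and Eif2s3x, an initiation factor, read 10.40 and 10.82, and 9.86 and 9.99. Eif2s3y, the Y-linked partner of the latter, read 2.78 and 2.86, and Uty, Kdm5d, Usp9y, Zfy1 and Zfy2 were not above either. Sry had 1 probe set at 5.08 and 5.13, of the kind marked as able to bind other transcripts, and another at 2.73. Xist, the RNA that silences an X chromosome, read 5.53 and 5.62 on 1 probe set, while the other 2 had means of 3.11 and 2.86.

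Proliferation genes were above the level in 23 of 23, beside 53.5% of all genes, with a median of 9.08. Pcna, the sliding clamp of DNA replication, read 11.16 and 10.77, the helicase subunit Mcm6 10.63 and 10.04, and the ribonucleotide reductase subunit Rrm2 10.34 and 9.90. Mki67, a mark of cycling cells, read 8.46 and 9.70, and Cdk1, the mitotic kinase, 9.84 and 9.30. The controls were not alike here. In 20 of the 23 genes control 1 was higher, and control 2 fell short of it by a median of 0.58. Most genes above the Olfr level leaned the same way, though by less. Of these, 40.1% were higher on control 2, and the median of control 2 minus control 1 was -0.052. Mki67, Top2a and Bub1 went the other way. Enzymes of polyamine and pyrimidine synthesis were above in 9 of 9, and 8 of the 9 were higher on control 1, by a median of 0.48 over the list. Among them were Cad, which starts pyrimidine synthesis, at 8.57 and 7.61, and Odc1, which starts polyamine synthesis, at 7.94 and 7.47. Tyms belongs to both lists.

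The brakes and drivers of the cell cycle covered the whole range. Ccnd2, a D cyclin, read 11.08 and 11.26, and all 6 of its probe sets were above, the lowest at 8.37. Ccnd1 read 9.28 and 9.02, Cdk4 9.70 and 9.45, and the inhibitor Cdkn1b 10.19 and 10.21. Cdkn2a, the locus of the p16 and p19 tumour suppressors, was not above the Olfr level at 2.99 and 2.85, on 1 probe set. Its neighbour Cdkn2b read 3.14 and 3.18, whereas Mtap, which lies beside them on the chromosome, read 9.79 and 9.23, with all 4 probe sets above. The other INK4 genes were above, Cdkn2c at 7.95 and 7.49 and Cdkn2d at 8.57 and 8.37. Cdkn1a, a target of p53, read 8.89 and 7.97. Of the 23 measured genes of the list, 18 were above, beside 53.5% of all genes.

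Genes of the RAS-MAPK and PI3K pathways were above in 18 of 22, beside 53.5% of all genes. Among the kinases, Akt1 read 10.23 and 9.92, Map2k1 9.64 and 9.56, Braf 7.84 and 8.59 and Araf 7.44 and 7.08. Feedback inhibitors that ERK signalling is known to induce were bright, Dusp6 at 9.51 and 9.71 and Dusp4 at 9.06 and 9.65. Some other genes that respond to ERK in many cells were not, with Spry4 at 4.07 and 4.92, Etv4 at 3.42 and 3.41 and Etv5 at a mean of 3.95 (SD 0.068). Spry4 does not stand for its family, since 5 of 7 Sprouty and Spred genes were above the level. Among these, Spred1 read 8.29 and 8.44, Spry2 6.88 and 7.05 and Spry1 6.78 and 6.89. Nf1, which restrains RAS, read 4.02 and 3.92 on 1 probe set.

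Antigen presentation genes were above in 17 of 22 for class I, beside 53.5% of all genes. The chaperones Canx (11.02 and 11.05) and Calr (10.89 and 10.20) were brightest. The class I heavy chain genes H2-D1 and H2-K1 read 8.04 and 8.02, and 7.19 and 7.07, each on a probe set marked as able to bind other transcripts, and their other probe sets had means of 4.81 or less. The immunoproteasome subunit Psmb8 read 3.50 and 3.33, and Nlrc5, the class I transactivator, 2.99 and 2.87. Of the class II and costimulation genes, 6 of 17 were above, beside the same 53.5%. The class II genes H2-Aa (3.88 and 3.85), H2-Ab1 (4.04 and 4.01) and H2-Eb1 (4.54 and 4.38), and their transactivator Ciita (3.54 and 3.56), were not among them. Pvr (8.89 and 8.94), a ligand of receptors on natural killer and T cells, Cd47 (8.56 and 8.74), which restrains phagocytes, and Cd274, which encodes PD-L1 (6.10 and 6.32), were.

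Genes tied to an invasive or dedifferentiated melanoma state were above in 12 of 22, a share near that of all genes. Lgals1, a galectin, read 11.94 and 11.84, Cd44, the hyaluronan receptor, 10.83 and 10.84, and the matrix protein Sparc 10.48 and 10.36. Others used to define that state were at the Olfr level, such as Wnt5a (3.18 and 3.19), Tnc (3.12 and 3.16), Ngfr and Mmp2 (4.46 and 4.26). Egfr was just above at 5.08 and 5.24 with 1 of 6 probe sets. Adhesion and surface proteins were above in 16 of 21, beside 53.5% of all genes. Bsg, an immunoglobulin-like surface protein, had a mean of 11.02 (SD 0.016), the integrin chains Itgav, Itgb1 and Itga4 read 10.03 and 10.16, 9.51 and 9.44, and 8.28 and 9.31. Mcam, a melanoma adhesion molecule, had a mean of 6.48 (SD 0.67). N-cadherin (Cdh2) read 8.76 and 8.55 and E-cadherin (Cdh1) 2.87 and 2.76.

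Iron and lysosome genes were above in 16 of 16, beside 53.5% of all genes, with 12 among the brightest 5% and a median of 10.34. Ftl1, the ferritin light chain, read 11.82 and 11.70, the lysosomal enzymes Hexa, Ctsz and Ctsd lay between 11.02 and 11.21 on both arrays, and the membrane protein Lamp1 read 10.66 and 10.65. Of the cathepsins 8 of 18 were above, a share near that of all genes. Ctsb read 10.38 and 10.23 and Ctsl 9.61 and 10.28, and the family's lowest mean was 2.67. The vacuolar ATPase, which acidifies lysosomes and melanosomes, had 12 of 18 subunits above, led by Atp6v1f at 10.64 and 10.57.

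Across gene families the share above the Olfr level ran from 0 to 100%, beside 53.5% of all genes. Subunits of NADH dehydrogenase (32 of 32), of ATP synthase (17 of 17) and mitochondrial ribosomal proteins (72 of 73) were nearly complete, and 64 of 68 cytosolic ribosomal protein genes were among the brightest 5%. In several of these machines the members below the level were forms known from particular tissues. Of the ribosomal proteins, Rpl3l, a muscle form, read 3.18 and 3.20, and Rpl39l, a testis form, 3.81 and 3.82, beside Rps15a, which has no such restriction. Of 37 proteasome subunits the 3 below were Psma8, of testis, at 3.29 and 3.15, Psmb11, of thymus, at 3.29 and 3.23, and the immune form Psmb8. Of the CCT chaperonin, Cct6b, a testis form, read 3.90 and 3.85, and the other 8 measured subunits were all among the brightest 5%. These 7 genes were singled out after their values had been seen. Other machines had members not above as well, which are not sorted by tissue here. These were 4 of 41 translation initiation factors, 4 of 31 aminoacyl-tRNA synthetases and 6 of 18 vacuolar ATPase subunits.

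Families of secreted and contact signals differed in how many members were above, beside 53.5% of all genes. Of the WNT ligands 1 of 19 was above, Wnt7b at 6.37 and 6.18, while 6 of 10 Frizzled receptors were. FGF ligands were above in 3 of 22 and BMP and GDF ligands in 6 of 16. Semaphorins were above in 11 of 20, with Sema6d at 7.62 and 7.73, and their plexin and neuropilin receptors in 8 of 13. Ephrins were above in 4 of 7, Notch receptors and ligands in 4 of 8, and TGF-beta ligands and receptors in 3 of 6. From semaphorins to TGF-beta genes these shares, 50% to 61.5%, were near that of all genes. Among immune signals, interleukins had 1 of 28 above, Il18 at 5.97 and 5.68, and chemokine receptors 1 of 13. Of the receptors of the innate immune system, Tlr4, which senses bacterial lipopolysaccharide, read 7.25 and 8.29 and Tlr3 6.20 and 6.29. EPH receptors had 3 of 13 above, with Epha3 far ahead at 9.33 and 9.92. Among semaphorin receptors, Plxnb2 read 9.04 and 8.93 and Nrp2 8.98 and 8.81. TGF-beta receptors Tgfbr2 and Tgfbr1 read 8.18 and 8.34, and 7.91 and 8.47.

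Transcription factor families had a few bright members each, and their counts stand beside the 53.5% of all genes. Of the 34 HOX genes, which specify position along the body, 11 were above, led by Hoxa10 at 8.47 and 8.34 and Hoxb9 at 7.29 and 7.41. SOX genes had 8 of 19 above: after Sox10 came Sox11 (9.54 and 9.68), Sox4 (9.71 and 9.48) and Sox6 (8.35 and 8.56). PAX genes had 2 of 8 above, Pax3 and Pax9 (5.27 and 5.44). T-box genes had 3 of 13 above, with Tbx4, a gene of hindlimb and lung, at 7.44 and 7.35. E2F genes, which drive entry into S phase, were above in 7 of 8.

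Cell junction and matrix families were sparse, beside the 53.5% of all genes above the level. Claudins, the strand proteins of tight junctions, were above in 2 of 21, Cldn12 (8.97 and 8.98) and Cldn2 (5.39 and 5.28). Connexins were above in 3 of 14, with Gjb2 at 9.55 and 9.62. Keratins were above in 6 of 37 and none exceeded 6.37 in mean, while collagens were above in 13 of 42, led by the basement membrane chain Col4a1 at 7.31 and 7.39. Serpins were above in 3 of 39, with Serpinh1, the collagen chaperone, at 10.87 and 10.62. Of detoxifying enzymes, glutathione S-transferases were above in 14 of 19, Gstp1 at 11.98 and 11.93 and Gsta2 at 9.98 and 10.32, but cytochrome P450 genes in only 9 of 64, with Cyp2j6 at 8.24 and 7.95. Ion channels were mostly dark, with 12 of 73 potassium channel genes above, among which Kcnj11 read 7.30 and 7.28.

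**Figure D4:**
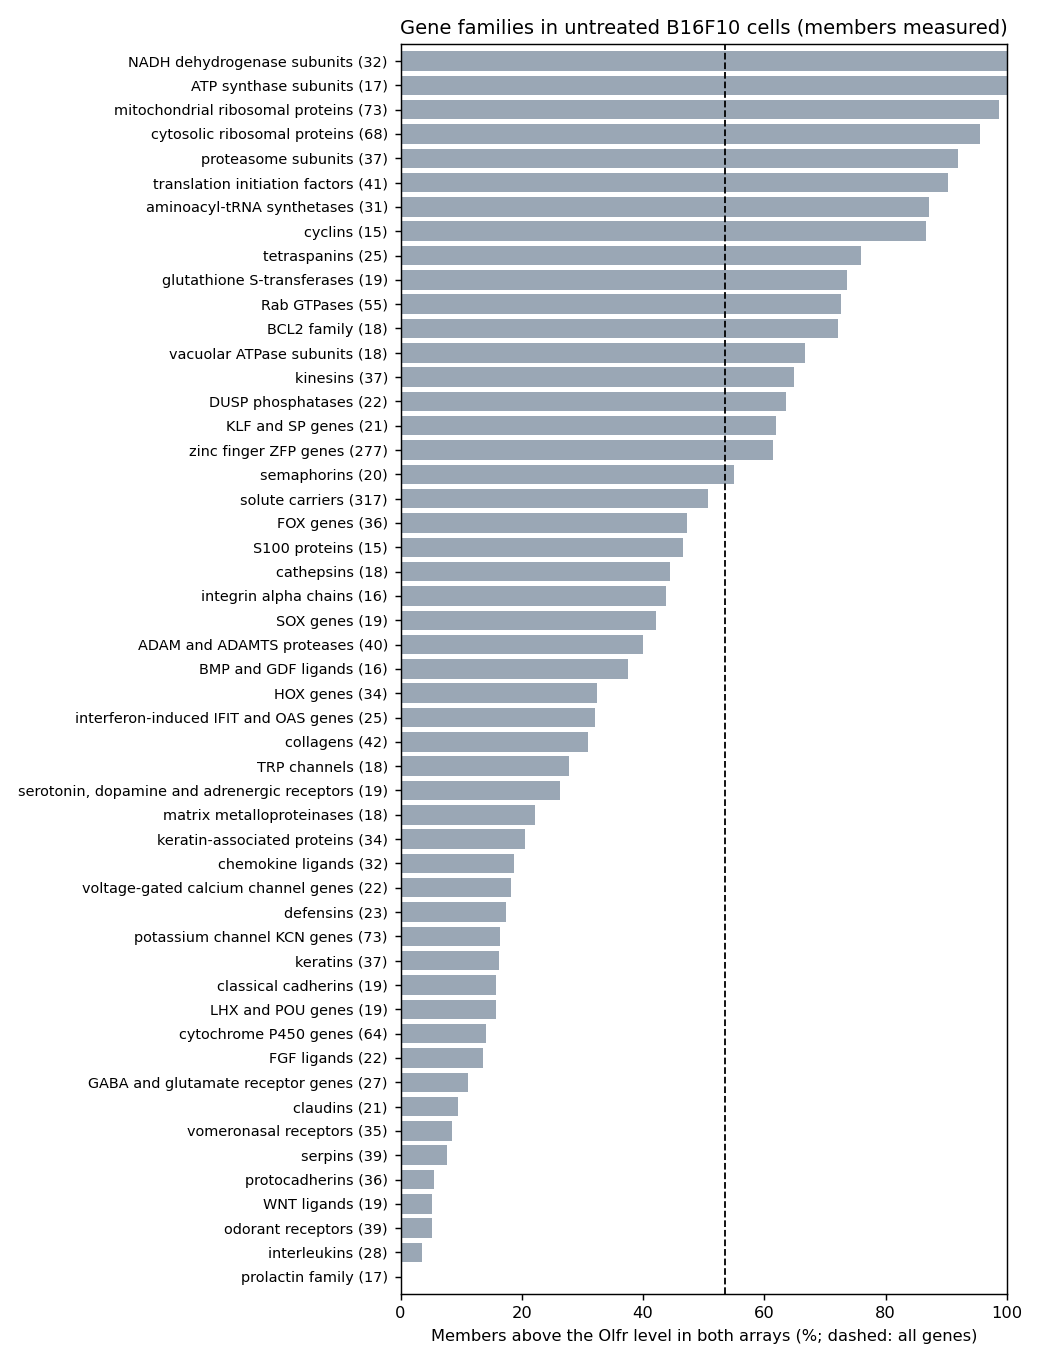
Percent of the measured members of each gene family above the Olfr level on both arrays, for families with at least 15 measured members (number in brackets), with the dashed line at the 53.5% of all genes. Families of mitochondria and protein synthesis stand at the top, and interleukins, WNT ligands, protocadherins and serpins stand near the odorant receptors at the bottom.

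Sets of related genes were compared within themselves, in 52 sets with at least 2 measured members. The gap between the brightest and the next member exceeded 3.43, the 90th percentile of the gap between probe sets of 1 gene, in 15 sets, and in 11 of these the next member was itself above the Olfr level. For smaller gaps the order of 2 members is within what probe sets of a single gene show. Where the next member is at or near the Olfr level, the size of the gap is set by the background and is not given. Lineage sets were among the 15. Mitf had a mean of 10.94 and Tfe3, the next of its family, 7.21. Sox10 at 10.88 was followed by Sox9 at 4.90, close to the bound, Mc1r at 10.01 by Mc3r at 4.97, and Tfap2a by Tfap2b, which was not above.

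Metabolic and structural sets were among them too. Pgk1, the glycolytic kinase, read 11.92 and 12.02, against 2.87 and 3.05 for Pgk2, its testis form, which was not above. Pkm read 10.92 and 10.93 and Pklr, the liver and red cell form, 5.92 and 5.91. The respiratory subunits Cox6a1 (11.85 and 11.98) and Cox4i1 (11.42 and 11.46) were followed by Cox6a2 (4.95 and 5.63) and Cox4i2 (5.09 and 4.94), both close to the bound. Vim, the intermediate filament of mesenchymal cells, read 12.04 and 11.79, with Des next at 6.31 and 6.47, and Nes, of neural progenitors, at 3.62 and 3.42. Ldha read 11.83 and 11.82 and Ldhb 9.09 and 9.21, a gap of less than 3.43, and Hk2 (9.68 and 9.86) and Hk1 (9.17 and 8.86) were closer still. Hif1a, the oxygen-regulated factor, read 10.13 and 10.40, with its relatives Hif3a next at 5.62 and 5.75 and Epas1 at 5.04 and 4.76. In the thymosin set Tmsb10 ranked among the brightest genes while Tmsb4x, on 1 probe set, read 3.43 and 3.37.

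**Figure D5:**
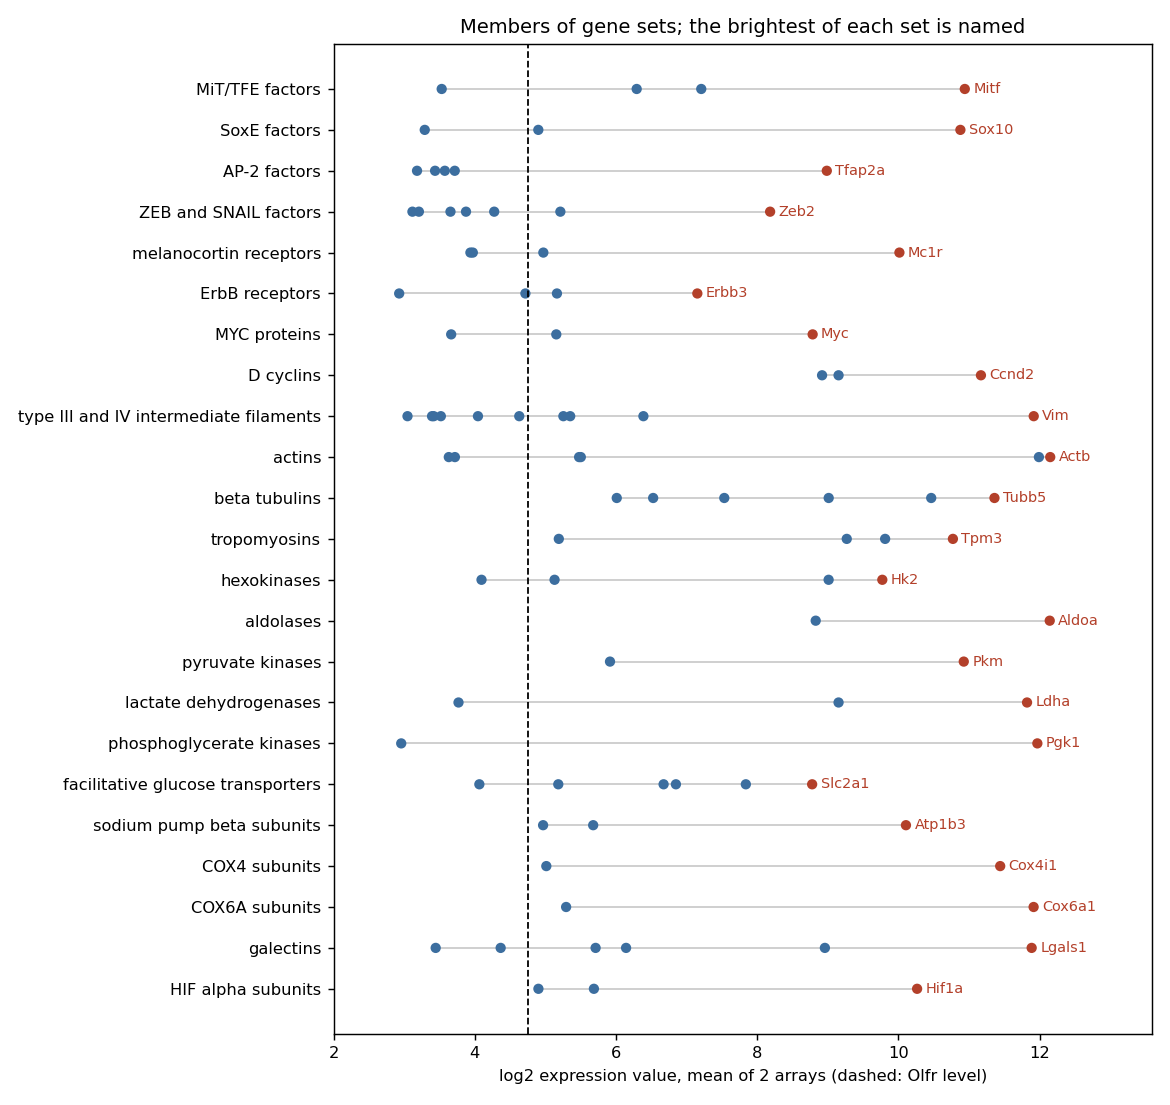
Mean log2 expression value of the 2 controls for each measured member of 23 sets of related genes, with the brightest of each set in red and named, and the Olfr level dashed at 4.75. Sets such as the SoxE factors, phosphoglycerate kinases and COX4 subunits have 1 member far to the right, while D cyclins, beta tubulins and hexokinases have several.

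The 2 untreated arrays differed by over 1 in 159 genes (0.93%), of which 13 were higher on control 1 and 146 on control 2. With 1 array against 1 array there is no test of these differences. The farthest apart were H1f4, a linker histone, at 7.75 and 4.69, and Txnip, an inhibitor of thioredoxin and glucose uptake, at 8.42 and 5.66. Ier3, an immediate early gene, read 8.32 and 6.87. On the other side Esf1, a nucleolar protein, read 5.58 and 7.91 and the zinc finger gene Zfp97 5.32 and 7.51. Genes named Zfp, which encode zinc finger proteins, made up 26 of the 146 (17.8%) and 1.62% of all genes, and none of them was among the 13. Of the 170 Zfp genes above the Olfr level, 99 (58.2%) were higher on control 2, with a median difference of 0.087, against 40.1% of all genes above the level, whose median difference was -0.052. Over all 277 Zfp genes the median difference was 0.043.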

How the data were processed

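Per the labels' protocols, biotin-labelled RNA made by 3-prime in vitro transcription from the poly(A) part of total RNA was hybridised to GeneAtlas mouse genome strips, with each array holding 1 sample. The authors deposited log2 values that, per the submitters' processing notes, came from RMA and from 2 Affymetrix programs, Expression Console and Transcriptome Analysis Console. Their versions are not given in the sources used here. Because RMA corrects background and equalises the arrays before it combines probes, weak signals are compressed and total RNA content cannot be read. Scanner intensities were not used here, and the number of arrays limits the precision. Array medians were 4.37 and 4.32 and upper quartiles 6.35 and 6.34.

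Of 45141 probe sets, 104 were control probe sets, 28898 had 1 gene symbol in the platform's annotation, which can be old, 551 had several and 15588 were unnamed here. Symbols were updated through the gene number for 28689 probe sets with a RefSeq gene table (GRCm38.p6). Of the 17097 genes, 7180 had more than 1 probe set, and the brightest in the mean of the 2 controls was used. In a probe set's name the suffix s marks probes shared among transcripts and x probes that can bind other transcripts. The suffix a was not read as a mark of binding to other genes. The Olfr level was the 95th percentile of the Olfr genes on each array.

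The text names the 30 brightest genes, members of 27 gene lists (420 of 475 entries measured, 2 of them through an older symbol) and of 55 sets of related genes (188 of 217 entries), the brightest members of gene families, and the 10 genes with the largest difference between controls in each direction. Members and lists were chosen with earlier results of these data known, so counts over them are descriptions. No test was run, since 1 group is described. RefSeq promoter windows were matched by symbol to 13604 of the 17097 genes (79.6%), too few for a check of base composition or motifs over the gene groups, which is void and not reported.

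Alternatives were the mean or the lowest of a gene's probe sets, 3 other bounds, quantile normalization again, calling by the mean of the arrays, and each control alone. Computations used Python 3.11.15, numpy 2.4.6 and pandas 2.3.3, and the code was tested on simulated data.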

Additional observations from a re-analysis of the deposited data

How the results depend on the processing

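No paired analysis was possible because 1 group is described and no groups are compared. Of 252 alternative counts, over 28 counts of genes above the Olfr level, 220 were within 1.5 times the count reported. Over all genes the count of 9141 became 8613 with probe sets averaged (8393 shared), 6606 with the lowest probe set (6389 shared), 8401 with the highest Olfr gene as the bound, 9453 with the 90th percentile, 8060 with the bound from 5 other families taken as silent (vomeronasal and trace amine receptors, keratin-associated proteins, defensins, prolactins; 5.27 and 5.21), 9376 by the mean of the arrays, and 9302 and 9301 without control 1 and without control 2. The pigment, transport, lineage factor, neural crest, proliferation, reference and iron lists stayed within 1.5 times throughout. With the lowest probe set the count was 4 for receptors and ligands, 5 for Schwann cell and glia markers, 1 for neuron markers, 0 for smooth muscle and cartilage, 1 for endothelial and for erythroid markers, 0 for genes of other organs, 2 for pluripotency and germ cell genes and for sex chromosome genes, 9 for RAS-MAPK and PI3K genes, 3 for class II genes, 8 for adhesion proteins and 5 for polyamine and pyrimidine enzymes. With probe sets averaged it was 1 for smooth muscle and endothelial markers, 0 for cartilage and other organs and 2 for pluripotency. With the highest Olfr gene, and with the other silent families, as the bound, it was 0 for cartilage, keratinocyte and endothelial markers and 1 for erythroid markers. The 90th percentile gave 3 for pluripotency, and the mean of the arrays 2 for cartilage and 2 for pluripotency. Leaving out a control gave 1 to 2 for cartilage (2 without control 2) and 1 to 3 for pluripotency (3 without control 1). The cause of these changes was not tested, apart from the dimmer probe sets and changed bounds that the alternatives themselves bring in. With probe sets averaged or the lowest taken, the Olfr bound was computed again from those values. Counts under these settings are thus not against the 4.77 and 4.73 of the main rule. Of 945 named genes, 225 moved by over 1 with probe sets averaged, and 20 of the 30 brightest were shared.

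Several dim lists thus rest on few genes near the bound, and a count of 1 or 2 of these is not distinct from 0. The fibroblast list differed, since its count stayed at 2 in every alternative and its highest mean was 9.21. Nor were the highest means of the neuron, erythroid and smooth muscle lists near the bound, at 7.53, 7.18 and 6.39. The counts of these lists fell with the lowest probe set. Of 110 genes in the other silent families, 14 (12.7%) were above the Olfr level.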

Other observations

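The probe sets with no gene name here were left out of the lists and ranks. Of these 15588, 4363 (28.0%) lay above the Olfr level on both arrays, and the brightest had a mean of 12.60, above that of any named gene (12.50). Families taken as silent were not uniformly dark. Krtap12-1, a hair keratin-associated protein gene, read 7.02 and 7.26 on 1 of its 2 probe sets, and the vomeronasal receptor gene Vmn1r44 read 5.36 and 5.63. Prolactin family genes were above in 0 of 17, with means up to 3.99.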
